A study of Mus musculus with 16 samples.

Results

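The genes described here are 9 that carry iron into cells, store it, release it or set its release: Tfrc, Trf, Slc11a2, Slc39a14, Slc11a1, Fth1, Ftl1, Slc40a1 and Hamp. They were matched by gene symbol and are 9 of the 55487 genes listed. Of the 9, 8 had at least 1 CPM (reads scaled to a total of 1000000 in each sample) in at least 3 samples and were tested among 18859 genes, and Hamp was not.

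Cells take up iron mostly bound to transferrin, which enters by its receptor and gives up the iron in endosomes. Iron that is not used at once is stored inside ferritin, a shell of heavy and light chains, and leaves the cell through ferroportin, which the peptide hormone hepcidin removes from the membrane. During infection and inflammation iron is known to be withdrawn from the circulation and held in cells, and phagocytes have a metal transporter of their own in the membrane of the phagosome.

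The study asked how the TOD of a peripheral inflammatory stimulus affects the response of the mouse cortex. All animals were wild-type C57Bl6 males aged 2 months, and each received i.p. injections on 2 consecutive days, of LPS at 2 mg/kg or of PBS, before harvest on the third day. One pair of groups was injected at ZT1, early in the light phase, with 3 PBS-treated and 5 LPS-treated mice. The other pair was injected at ZT13, early in the dark phase, with 3 PBS-treated and 5 LPS-treated mice. Total RNA from the cortex was depleted of ribosomal RNA and sequenced, which gave a median of 22459623 reads on genes, between 20251840 and 29112758. Limits set by these depths cover counting error only. Since only the title and a sample code tell the mice of a group apart, p-values measure the spread between samples.

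Groups follow the sample titles, since for 12 of 16 samples the labels hold a treatment field that states the opposite. Gfap, an astrocyte gene that rises in gliosis, ranged over 111 to 123 CPM where the title said PBS and over 572 to 1134 CPM where it said LPS. Markers of cortical neurons were abundant in every sample, with Snap25 at 1199 to 1357 CPM and a sum over 8 markers of 3352 to 3444 CPM in ZT1 PBS mice, 3110 to 3358 in ZT1 LPS mice, 3409 to 3570 in ZT13 PBS mice and 3096 to 3265 in ZT13 LPS mice. With LPS 1 of the 8 fell at ZT1, Neurod6, and 4 fell at ZT13, Cux2, Neurod6, Slc17a7 and Snap25. Over all tested genes 5.15% fell at ZT1 and 9.40% at ZT13. The 9 markers of other brain regions summed to 56.7 to 72.9 CPM in ZT1 PBS mice, 70.9 to 79.8 in ZT1 LPS mice, 62.5 to 69.1 in ZT13 PBS mice and 75.8 to 88.7 in ZT13 LPS mice. Of 6 tested, Prkcd rose with LPS at both times. Gabra6 of cerebellar granule cells did not exceed 0.198 CPM. The 8 choroid plexus markers varied widely within every group, from 14.9 to 994 CPM in sum, led by Ttr at 4.57 to 875 CPM, and none of the 8 passed the test in any comparison by limma, with 0 at an unadjusted p under 0.05.

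Ferritin heavy chain was the most abundant of the 9 transcripts at every time and under both treatments. Per kilobase of the longest coding transcript, the mean level in ZT1 PBS mice was 554 ± 15.5 CPM per kb for Fth1, 122 ± 4.75 for Ftl1, 52.1 ± 4.23 for Trf, 11.3 ± 0.887 for Tfrc, 9.28 ± 0.223 for Slc11a2, 5.95 ± 0.137 for Slc39a14, 1.65 ± 0.144 for Slc40a1 and 0.740 ± 0.210 for Slc11a1 (SD, n = 3). The ranges of neighbours in this order did not overlap between samples of that group. In LPS-treated mice the ranges of Tfrc and Slc11a2 overlapped at both times, those of Slc11a2 and Slc39a14 overlapped too, and the lower end of the order turned. Slc11a1 reached 6.53 ± 1.40 CPM per kb in ZT13 LPS mice and lay above Slc40a1, which was at 1.49 ± 0.233 (SD, n = 5). The place of Slc39a14 depends on the transcript used, since with the lengths of the first listed transcripts it was at 14.0 CPM per kb and Slc11a2 at 13.5 in ZT1 PBS mice, both above Tfrc at 11.3.

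At ZT1, LPS raised both ferritin chains, the phagosomal transporter Slc11a1 and the importers Slc39a14 and Slc11a2. Of the 8 genes tested 5 were higher in LPS-treated mice, where 11.1% of all tested genes were, and 0 were lower by limma, where 5.15% of all tested genes were. At an unadjusted p under 0.05, 6 of the 8 differed, and 30.3% of all tested genes. The median log2 fold change of the 8 was 0.48, against 0.04 for all genes. Fold changes throughout are on the log2(CPM + 0.5) scale, which understates those of low genes. In bulk tissue a change in the number of cells of a type and a change in RNA per cell cannot be told apart.

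At ZT13, LPS raised the same 5 and Trf, and the rise of Slc11a1 was the largest of the 8. Here 6 of 8 were higher, beside 19.2% of all tested genes, and 0 were lower by limma, beside 9.40% of all tested genes. The count at an unadjusted p under 0.05 was 6, beside 38.3% of all tested genes, and the median log2 fold change was 0.73, against 0.05 for all genes. The split of all DEGs between higher and lower depended on scaling. At ZT1 it was 2089 higher and 972 lower as deposited (68.2% higher), 1656 and 1390 with median-of-ratios factors (54.4%), and 1493 and 1426 after quantile normalization (51.1%). At ZT13 it was 3629 and 1772 (67.2%), 2842 and 2831 (50.1%), and 2540 and 3106 (45.0%), and quantile normalization shifted the median of all genes at ZT13 by -0.11. None of the 8 genes changed sign between LPS and PBS under either scaling.

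**Figure D1:**
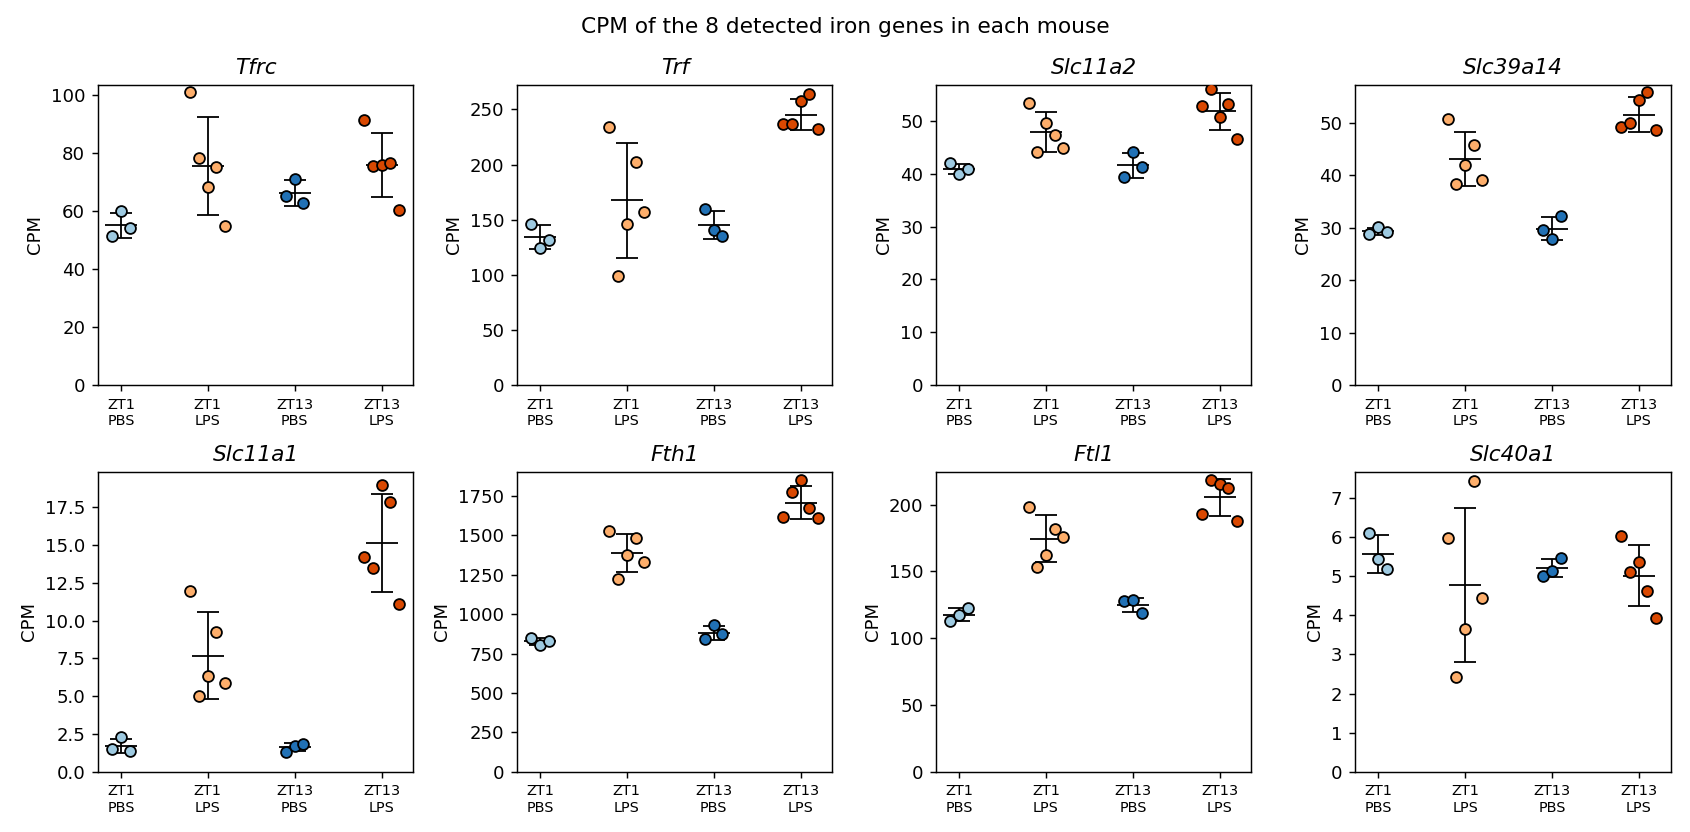
CPM of each of the 8 tested iron genes in every mouse, with a point for each mouse, a dash for the mean and bars for the SD (n = 3 for PBS, n = 5 for LPS). Fth1, Ftl1, Slc11a1, Slc39a14 and Slc11a2 lie above all PBS mice of the same time in every LPS mouse, Trf does so at ZT13, and Tfrc and Slc40a1 overlap.

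Tfrc (ENSMUSG00000022797, chr16:32608920-32632794, plus strand, GRCm38) encodes the transferrin receptor that brings iron-loaded transferrin into the cell. At ZT1 it measured 51.5, 60.0 and 54.1 CPM in PBS mice and 101, 78.6, 68.3, 75.3 and 55.0 CPM in LPS mice. At ZT13 it measured 65.1, 71.3 and 62.7 CPM in PBS mice and 91.6, 75.6, 76.0, 76.7 and 60.4 CPM in LPS mice. In each LPS group replicate 1 was highest, replicate 5 lay within or under the PBS mice, and the other 4 were above all PBS mice of that time. The log2 fold change for LPS did not pass the test at ZT1 (0.43, SE 0.15, adjusted p = 0.071) or at ZT13 (0.19, SE 0.10, adjusted p = 0.18). Without LPS replicate 5 the values were 0.53 (SE 0.11, adjusted p = 0.0074) at ZT1 and 0.26 (SE 0.07, adjusted p = 0.0083) at ZT13. Without LPS replicate 1 they were 0.32 (SE 0.11, adjusted p = 0.086) and 0.12 (SE 0.08, adjusted p = 0.33). The ZT1 difference also passed in a single fit of all samples (adjusted p = 0.035) and with sample quality weights (adjusted p = 0.030). Over the alternatives that kept all mice and the groups by title, its adjusted p was in a range of 0.014 to 0.29. At ZT13 that range was 0.0088 to 0.47, and the lowest value at each time was with the replicate block. In that block LPS replicates 4 and 5 have no PBS mouse of their number and add nothing to the estimate.

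Trf (ENSMUSG00000032554, chr9:103204001-103230444, minus strand) encodes transferrin, the extracellular iron carrier, which in the brain is made mainly by oligodendrocytes and the choroid plexus. In ZT1 mice it measured 146, 124 and 132 CPM after PBS and 234, 98.6, 146, 202 and 157 CPM after LPS. In ZT13 mice it measured 159, 141 and 135 CPM after PBS and 237, 236, 258, 264 and 232 CPM after LPS. The ZT1 LPS mice were spread on both sides of their controls, with replicate 2 under all of them, while all 5 ZT13 LPS mice lay close together and above every PBS mouse. Trf rose with LPS at ZT13 by a log2 fold change of 0.76 (SE 0.06, adjusted p = 2.7e-07). The mean was 145 ± 12.7 CPM (SD, n = 3) after PBS and 245 ± 14.4 CPM (SD, n = 5) after LPS. At ZT1 the value was 0.26 (SE 0.21, adjusted p = 0.45), with 4 of 5 LPS mice above all PBS mice. Without ZT1 LPS replicate 2 it was 0.44 (SE 0.14, adjusted p = 0.047), and without ZT1 LPS replicate 1 it was 0.13 (SE 0.18, adjusted p = 0.72).

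The summed oligodendrocyte markers were not higher where Trf rose. Their sum over 10 genes at ZT1 was 2937, 2538 and 2961 CPM in PBS mice and 2671, 2656, 2668, 2900 and 2387 CPM in LPS mice. At ZT13 the sum was 3171, 3015 and 2924 CPM in PBS mice and 2706, 2739, 2627, 2559 and 2658 CPM in LPS mice, each of the latter below every PBS mouse. The most abundant was Mbp, at 1168 to 1445 CPM, and no marker of the list was at or under 3 reads. With LPS 1 rose and 3 fell at ZT1, and 2 rose and 5 fell at ZT13, of 10 tested. Over all tested genes 11.1% rose and 5.15% fell at ZT1, and 19.2% and 9.40% did at ZT13. The markers that rose were Mobp at both times, from a mean of 496 to 562 CPM at ZT13, and Cldn11 at ZT13, from 108 to 138 CPM. Mbp made up 47.8% of the sum, and the part of these cells in the rise of Trf was not tested.

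Slc11a2 (ENSMUSG00000023030, chr15:100387898-100425072, minus strand) encodes the divalent metal transporter that moves ferrous iron from endosomes into the cytosol. Its ZT1 values were 42.0, 40.0 and 40.9 CPM with PBS and 53.4, 44.2, 49.7, 47.4 and 44.9 CPM with LPS. Its ZT13 values were 39.4, 44.1 and 41.3 CPM with PBS and 52.9, 56.0, 50.8, 53.1 and 46.6 CPM with LPS. Every LPS mouse was above every PBS mouse of its time, by narrow margins. The rise was a log2 fold change of 0.22 at ZT1 (SE 0.06, adjusted p = 0.037) and 0.31 at ZT13 (SE 0.06, adjusted p = 0.0012). The ZT1 call is at the edge of the threshold. It was lost with median-of-ratios factors (0.18, adjusted p = 0.065), quantile normalization (0.17, adjusted p = 0.083), no filter on low values (adjusted p = 0.12), no intensity trend (adjusted p = 0.086), and without any 1 of the 3 ZT1 PBS mice or of ZT1 LPS replicates 1, 3 and 4 (adjusted p of 0.055 to 0.13). Over the alternatives that kept all mice and the groups by title, the adjusted p was 0.0065 to 0.12.

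Slc39a14 (ENSMUSG00000022094, chr14:70303469-70351425, minus strand) encodes a plasma membrane importer of iron not bound to transferrin, and of zinc and manganese. PBS mice had 28.7, 30.1 and 29.2 CPM at ZT1, and LPS mice had 50.7, 38.3, 41.9, 45.9 and 39.2 CPM. PBS mice had 29.5, 27.8 and 32.2 CPM at ZT13, and LPS mice had 49.2, 49.9, 54.4, 55.8 and 48.6 CPM. The groups were apart at both times, and the lowest LPS mouse was ZT1 replicate 2. Slc39a14 rose by a log2 fold change of 0.54 at ZT1 (SE 0.08, adjusted p = 0.0014) and 0.78 at ZT13 (SE 0.06, adjusted p = 4.6e-07), a ratio of mean CPM of 1.47 and 1.73.

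Slc11a1 (ENSMUSG00000026177, chr1:74375195-74386062, plus strand) encodes the transporter by which macrophages and neutrophils move metal ions out of the phagosome. PBS mice measured 1.48, 2.27 and 1.39 CPM at ZT1 and 1.33, 1.71 and 1.84 CPM at ZT13. LPS mice measured 11.9, 5.01, 6.35, 9.21 and 5.89 CPM at ZT1. The ZT13 LPS mice measured 14.2, 13.5, 19.0, 17.8 and 11.1 CPM. No LPS mouse came near the PBS range, replicates 1 and 4 were the highest at ZT1, and the lowest ZT13 LPS mouse lay under the highest ZT1 LPS mouse. The rise was a log2 fold change of 1.84 at ZT1 (SE 0.25, adjusted p = 4.9e-04) and 2.86 at ZT13 (SE 0.16, adjusted p = 1.2e-08), or 4.48-fold and 9.30-fold in mean CPM.

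The summed markers of neutrophils, and of monocytes with perivascular macrophages, moved with Slc11a1. The 10 neutrophil markers summed to 0.569 to 1.48 CPM in PBS mice, to 52.9, 11.0, 22.0, 46.4 and 10.9 CPM in ZT1 LPS mice, and to 69.0, 56.5, 98.8, 99.3 and 37.3 CPM in ZT13 LPS mice. Within each LPS group the highest Slc11a1 was in the mice with the highest neutrophil sum, ZT1 replicates 1 and 4 and ZT13 replicates 3 and 4. S100a9 was the most abundant neutrophil marker, at 0.0759 to 47.3 CPM. Ly6g, S100a8, Elane, Camp, Mmp8 and Cxcr2 were at or under 3 reads in every PBS mouse. Of 6 neutrophil markers tested 5 rose at ZT1 and 6 at ZT13, but all 6 were under 1 CPM in every PBS mouse and entered the test through the LPS groups, so these counts are no support. Mpo, which was not tested, had a mean of 0.437 CPM in ZT1 PBS mice and 0.0940 CPM in ZT1 LPS mice, and of 0.383 and 0.149 CPM at ZT13. The 10 markers of monocytes and perivascular macrophages, led by F13a1 at 1.53 to 15.8 CPM, summed to 7.37 to 11.6 CPM in PBS mice. Their sum was 32.5, 11.1, 21.3, 30.1 and 16.8 CPM in ZT1 LPS mice and 37.8, 37.6, 53.9, 48.3 and 33.1 CPM in ZT13 LPS mice. Of 7 tested 5 rose at ZT1 and 4 at ZT13, but of those called Ccr2, Ly6c2, Chil3 and Cbr2 were under 1 CPM in every PBS mouse and entered the test through the LPS groups, so these counts are no support either. Chil3 was at or under 3 reads in every PBS mouse. Mrc1 of perivascular macrophages, the most abundant of the list in PBS mice, passed the test at neither time, with means of 4.61 CPM after PBS and 4.43 CPM after LPS at ZT1, and 4.34 and 4.99 CPM at ZT13. Pf4 had means of 0.507 and 0.266 CPM at ZT1, and 0.336 and 0.798 CPM at ZT13. The part of these cells in the rise of Slc11a1 was not tested.

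Microglial markers rose as well, with another order across mice. The 10 microglial markers, led by Csf1r at 74.1 to 141 CPM, summed to 248, 225 and 229 CPM in ZT1 PBS mice and 392, 275, 375, 440 and 395 CPM in ZT1 LPS mice. At ZT13 they summed to 239, 224 and 226 CPM in PBS mice and 374, 399, 341, 338 and 377 CPM in LPS mice. At ZT13 the LPS mice with the most Slc11a1, replicates 3 and 4, had the lowest microglial sums of their group, while at ZT1 the LPS mouse with the least Slc11a1, replicate 2, had the lowest sum and replicate 4, with the next to most Slc11a1, the highest. At both times 7 of the 10 rose and 2 fell, P2ry12 and Siglech, and none was at or under 3 reads in all samples. Over all tested genes 11.1% rose and 5.15% fell at ZT1, and 19.2% and 9.40% did at ZT13. The part of microglia in the rise of Slc11a1 and ferritin was not tested.

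**Figure D2:**
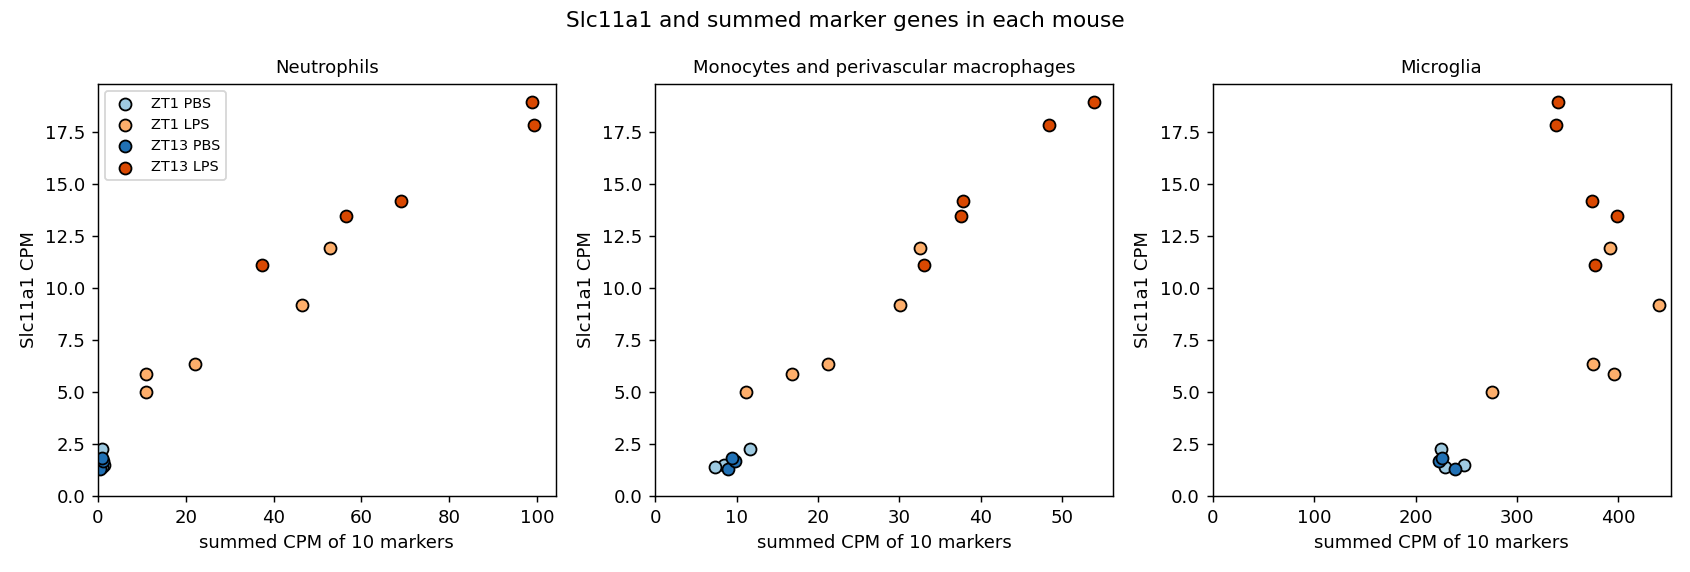
Slc11a1 CPM in each of the 16 mice against the summed CPM of 10 markers of neutrophils, of monocytes and perivascular macrophages, and of microglia, coloured by group. PBS mice lie at or under 2.27 CPM of Slc11a1 in all 3 plots. LPS mice with higher neutrophil or monocyte sums tend to have more Slc11a1, while for the microglial sum this differs between ZT1, where replicate 2 is lowest for both, and ZT13, where replicates 3 and 4 have the most Slc11a1 and the lowest sums.

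Fth1 (ENSMUSG00000024661, chr19:9980598-9985098, plus strand) encodes the ferritin heavy chain, which oxidises ferrous iron so that it can be stored. At ZT1 the PBS mice were at 848, 802 and 832 CPM and the LPS mice at 1527, 1223, 1379, 1482 and 1333 CPM. At ZT13 the PBS mice were at 844, 929 and 872 CPM and the LPS mice at 1619, 1778, 1852, 1671 and 1611 CPM. The lowest LPS mouse, ZT1 replicate 2, was above the highest PBS mouse of either time, and all ZT13 LPS mice were above all ZT1 LPS mice. Fth1 rose by a log2 fold change of 0.74 at ZT1 (SE 0.06, adjusted p = 1.8e-05) and 0.95 at ZT13 (SE 0.05, adjusted p = 6.2e-09). PBS means were 827 ± 23.2 CPM at ZT1 and 882 ± 43.6 CPM at ZT13 (SD, n = 3). LPS means were 1389 ± 121 CPM and 1706 ± 105 CPM (SD, n = 5).

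Ftl1 (ENSMUSG00000050708, chr7:45457944-45459884, minus strand) encodes the ferritin light chain, which helps the iron core to form. The ZT1 PBS mice had 113, 117 and 122 CPM and the ZT1 LPS mice 199, 153, 162, 182 and 176 CPM. The ZT13 PBS mice had 128, 128 and 119 CPM and the ZT13 LPS mice 193, 218, 215, 213 and 187 CPM. As for Fth1, no LPS mouse overlapped the PBS mice and ZT1 LPS replicate 2 was the lowest LPS mouse. Its rise was 0.56 on the log2 scale at ZT1 (SE 0.07, adjusted p = 4.0e-04) and 0.71 at ZT13 (SE 0.05, adjusted p = 2.4e-07). The level of Ftl1 is uncertain to the extent that reads are split with its near-identical copies Ftl1-ps1, Ftl2-ps and Ftl1-ps2. These took 6.21% to 8.97% of the summed signal in 14 samples, 23.8% in ZT1 LPS replicate 5 and 14.0% in ZT13 LPS replicate 5. Adding the copies was an alternative chosen after the data were seen. LPS then gave a difference of 0.61 on the log2 scale at ZT1 (adjusted p = 0.0014) and 0.72 at ZT13 (adjusted p = 5.7e-08). Over all alternatives with groups by title, the ZT1 adjusted p was 1.0e-05 to 0.018. The listed copies of Fth1 took at most 0.236% of its signal.

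The ratio of the ferritin chains depends on how copies are treated and on the transcript lengths used. With each gene as listed, the ratio of Fth1 to Ftl1 per kilobase was 4.56 ± 0.254 in ZT1 PBS mice and 4.58 ± 0.259 in ZT13 PBS mice (SD, n = 3). It was 5.17 ± 0.238 in ZT1 LPS mice and 5.39 ± 0.208 in ZT13 LPS mice (SD, n = 5). On these values every LPS mouse lay above every PBS mouse, from 4.91 to 5.58 against 4.28 to 4.85. With the copies added to both chains the groups overlapped at ZT1, where LPS mice ranged from 3.75 in replicate 5, under all PBS mice, to 5.10, and PBS mice from 4.05 to 4.48. At ZT13 they did not, with 4.77 to 5.21 in LPS mice and 3.96 to 4.35 in PBS mice. The ratio of Fth1 to Tfrc per kilobase, of storage to uptake, was 43.8 to 53.9 in ZT1 PBS mice and 49.4 to 79.3 in ZT1 LPS mice, which overlapped. At ZT13 it was 42.4 to 45.5 in PBS mice and 57.8 to 87.3 in LPS mice, which did not. With the lengths of the first listed transcripts the levels of both ratios were higher, at 7.33 ± 0.408 for Fth1 to Ftl1 and 79.3 ± 8.24 for Fth1 to Tfrc in ZT1 PBS mice (SD, n = 3), by the same factor in every sample. These ratios are a description and were not tested.

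Slc40a1 (ENSMUSG00000025993, chr1:45908068-45926523, minus strand) encodes ferroportin, the exporter of cellular iron. Its level was 6.11, 5.43 and 5.18 CPM in ZT1 PBS mice and 5.97, 2.42, 3.64, 7.42 and 4.44 CPM in ZT1 LPS mice. Its level was 5.01, 5.13 and 5.47 CPM in ZT13 PBS mice and 6.02, 5.11, 5.37, 4.62 and 3.94 CPM in ZT13 LPS mice. LPS mice lay on both sides of their controls at each time, and the widest spread was at ZT1, from replicate 2 to replicate 4. LPS against PBS gave a log2 fold change of -0.28 at ZT1 (SE 0.26, 95% interval -0.86 to 0.29, adjusted p = 0.52) and -0.06 at ZT13 (SE 0.12, 95% interval -0.33 to 0.21, adjusted p = 0.77). The ZT13 value turned its sign without LPS replicate 5 (0.02) and was -0.28 with quantile normalization (adjusted p = 0.10). The ZT1 value was -0.09 without LPS replicate 2 and -0.50 with the replicate block, to which LPS replicates 4 and 5 add nothing. It passed in no alternative.

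Hamp (ENSMUSG00000050440, chr7:30942368-30944032, minus strand) encodes hepcidin, the hormone that makes cells withdraw ferroportin and that is made mainly in the liver. It was at 0 in 14 of 16 samples, at 0.0343 CPM in ZT1 LPS replicate 3, which is 1 read, and at 0.134 CPM in ZT13 LPS replicate 5, which is 3 reads. Hamp was therefore not detected in any group at a floor of 3 reads, or 0.103 to 0.148 CPM by sample, and no fold change is given.

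**Figure D3:**
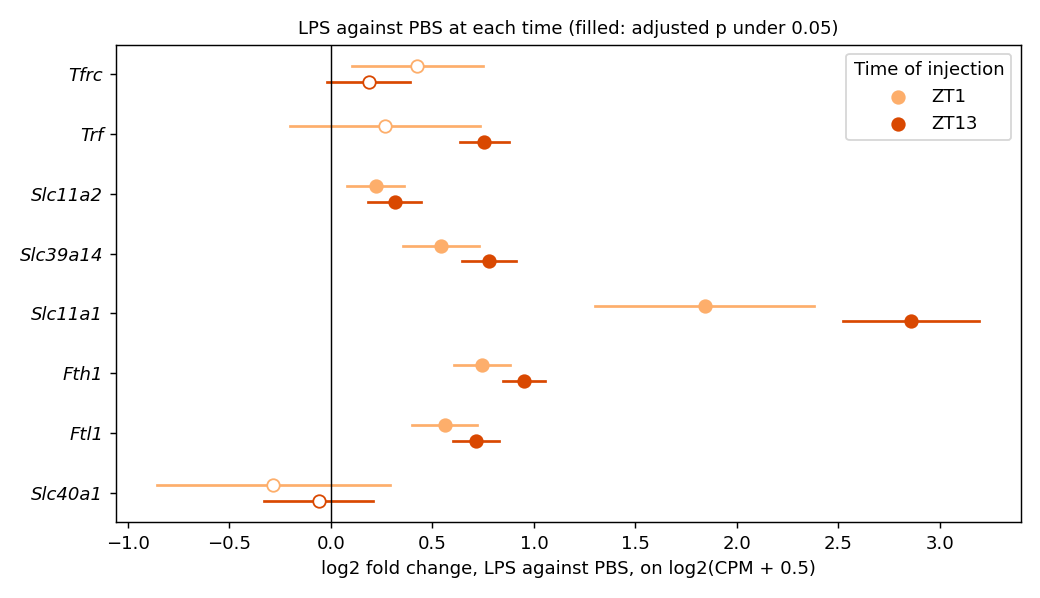
Log2 fold change of LPS against PBS for each of the 8 tested iron genes at ZT1 and at ZT13, with 95% intervals from limma (n = 3 PBS and 5 LPS mice at each time). Points are filled where the adjusted p was under 0.05, which holds for 5 genes at ZT1 and 6 at ZT13, with Slc11a1 farthest to the right at 1.84 and 2.86.

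Of 65 further genes of iron and haem handling 56 were tested. With LPS 13 rose and 0 fell at ZT1 by limma, beside 11.1% and 5.15% of all tested genes, and 21 of 56 had an unadjusted p under 0.05, near the 30.3% of all tested genes. At ZT13 24 rose and 2 fell, beside 19.2% and 9.40%, and 32 of 56 had an unadjusted p under 0.05, beside 38.3%. With no filter on low values 8 passed at ZT1. Lcn2, Hp and Steap4 were under 1 CPM in every PBS mouse and entered the test through the LPS groups. The median over these 56 was 0.10 on the log2 scale at ZT1, against 0.04 for all genes, and 0.14 at ZT13, against 0.05. The 2 that fell at ZT13 were Bmp6, a ligand that induces hepcidin, and Slc22a17, a receptor for lipocalin, both named after their values were seen. All 13 genes that rose at ZT1 were among the 24 that rose at ZT13, in comparisons that share no samples. The same overlap over all tested genes is not given here, so this one is not a result about iron genes.

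Lcn2 had the largest rise of the named further genes at both times, while the sizes for Hp and Steap4, and with them the order of Hp, Steap4 and Cp at ZT1 and of Steap4 and Cp at ZT13, depended on the pseudocount. Lcn2, the lipocalin that binds bacterial siderophores, was at 0.0421 to 0.197 CPM in PBS mice, at 326, 202, 165, 170 and 107 CPM in ZT1 LPS mice and at 333, 308, 406, 418 and 278 CPM in ZT13 LPS mice. Lcn2 rose by 8.19 on the log2 scale at ZT1 (SE 0.26, adjusted p = 2.3e-08) and 9.10 at ZT13 (SE 0.12, adjusted p = 4.9e-15), values that rest on the pseudocount since the PBS level is a few reads. Hp, haptoglobin, which binds free haemoglobin, was at 0.126 to 0.395 CPM in PBS mice, at 10.6, 1.79, 4.02, 6.55 and 1.68 CPM in ZT1 LPS mice and at 12.2, 11.2, 20.7, 18.5 and 7.66 CPM in ZT13 LPS mice. Its order across LPS mice was close to that of the neutrophil sum, whose part in it was not tested. Hp rose by 2.58 at ZT1 (SE 0.47, adjusted p = 0.0033) and 4.30 at ZT13 (SE 0.25, adjusted p = 2.2e-08), and the ZT1 call was lost with no filter on low values (adjusted p = 0.062, in a range from 1.9e-04).

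Of 2 tested genes of export and copper ferroxidases 1 rose at each time, and of 11 tested genes of uptake and carriers 3 rose at ZT1, and 5 rose and 1 fell at ZT13, beside 11.1% higher at ZT1 and 19.2% higher and 9.40% lower at ZT13 over all tested genes. Lcn2 and Steap4, which are among the 3 and the 5, entered the test through the LPS groups, so neither count is support for a share above that background. Cp, ceruloplasmin, the ferroxidase that works with ferroportin, was at 8.48, 11.999 and 11.2 CPM in ZT1 PBS mice and at 105, 75.7, 74.1, 72.9 and 58.9 CPM in ZT1 LPS mice. In ZT13 mice Cp was at 10.4, 10.3 and 9.14 CPM after PBS and at 108, 87.6, 108, 109 and 82.9 CPM after LPS. It rose by 2.80 (SE 0.16, adjusted p = 9.7e-07) and 3.25 (SE 0.09, adjusted p = 2.4e-11), which is 7.30-fold and 9.97-fold in mean CPM, while its partner Slc40a1 passed the test at neither time. Steap4, a metalloreductase, was at 0.0842 to 0.642 CPM in PBS mice and at 3.57 to 9.64 CPM in LPS mice, and it rose by 2.93 (SE 0.25, adjusted p = 2.3e-05) and 3.19 (SE 0.21, adjusted p = 6.0e-08). Cybrd1, a ferric reductase, was at 2.02 to 2.91 CPM in PBS mice and at 4.12 to 6.49 CPM in LPS mice, and it rose by 0.94 (SE 0.14, adjusted p = 0.0012) and 0.92 (SE 0.11, adjusted p = 3.4e-05).

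In the breakdown and transport of haem, 4 of 11 tested genes rose at ZT1 and 7 at ZT13, beside 11.1% and 19.2% of all tested genes, and Hp, counted at both times, entered the test through the LPS groups. Hmox1, the inducible oxygenase that frees iron from haem, was at 2.28 to 2.91 CPM in PBS mice and at 5.15 to 12.5 CPM in LPS mice, and it rose by 1.20 (SE 0.18, adjusted p = 9.7e-04) and 1.71 (SE 0.21, adjusted p = 2.8e-05). Cd163, the macrophage receptor for haptoglobin bound to haemoglobin, was at 1.28 to 2.55 CPM in PBS mice and at 3.27 to 6.24 CPM in LPS mice, and it rose by 1.07 at ZT1 (SE 0.19, adjusted p = 0.0026) and by 1.07 at ZT13 (SE 0.16, adjusted p = 2.0e-04). Flvcr2 overlapped at ZT1, where ZT1 LPS replicate 2 at 3.31 CPM lay under a PBS mouse at 3.56 CPM, and its rise there was 0.75 (SE 0.20, adjusted p = 0.024). That call was lost without ZT1 PBS replicate 1 or 3 or ZT1 LPS replicate 3 or 4 (adjusted p of 0.050 to 0.11), with no filter (0.14) and with no intensity trend (0.055). The replicate block, to which LPS replicates 4 and 5 add nothing, lost it too. With groups by title, the call was made in 9 of 12 fits that left no mouse out, with an adjusted p from 0.0020. At ZT13 Flvcr2 rose by 0.81 (SE 0.13, adjusted p = 2.9e-04).

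Among genes listed for the control of hepcidin, which include the pathway target Id1, 3 of 9 tested rose at ZT1, and 4 rose and 1 fell at ZT13. Beside them, 11.1% of all tested genes were higher at ZT1, and 19.2% were higher and 9.40% lower at ZT13. Hamp itself was not detected. Stat3, the transcription factor downstream of interleukin receptors, was at 41.9 to 46.1 CPM in PBS mice and at 67.7 to 117 CPM in LPS mice, and it rose by 0.74 (SE 0.09, adjusted p = 3.4e-04) and 1.19 (SE 0.10, adjusted p = 8.2e-07). Hfe, a partner of the transferrin receptor, was at 1.35 to 3.53 CPM in PBS mice and at 3.76 to 8.63 CPM in LPS mice, and it rose by 1.22 (SE 0.27, adjusted p = 0.0094) and 0.97 (SE 0.15, adjusted p = 2.7e-04). Id1, a target of BMP signalling, was at 9.88 to 13.9 CPM in PBS mice and at 13.9 to 27.1 CPM in LPS mice, and it rose by 0.74 (SE 0.17, adjusted p = 0.013) and 0.64 (SE 0.10, adjusted p = 2.7e-04). With no filter on low values Hfe (adjusted p = 0.096) and Id1 (adjusted p = 0.11) were not called at ZT1, nor was Hfe without ZT1 PBS replicate 3 (adjusted p = 0.058) or Id1 without ZT1 PBS replicate 1 (adjusted p = 0.052) or 2 (adjusted p = 0.057). The lowest adjusted p with all mice was 9.5e-04 for Hfe and 0.0017 for Id1.

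In haem synthesis and mitochondrial iron, 2 of 17 tested genes rose at ZT1 and 5 at ZT13, where 11.1% and 19.2% of all tested genes did, so the ZT1 count is near the background. Alas1, the first enzyme of haem synthesis, was at 48.3 to 52.9 CPM in PBS mice and at 54.7 to 66.7 CPM in LPS mice, and it rose by 0.26 (SE 0.05, adjusted p = 0.0057) and 0.35 (SE 0.04, adjusted p = 3.3e-05). Ppox, a later enzyme of haem synthesis, was at 14.7 to 16.9 CPM in PBS mice and at 16.9 to 21.2 CPM in LPS mice, and it rose by 0.25 (SE 0.08, adjusted p = 0.049) and 0.23 (SE 0.07, adjusted p = 0.019). With groups by title, the ZT1 call of Ppox was made in 5 of 12 fits that kept all mice and in 1 of 8 that left out a mouse. Its ZT13 call was made in 9 of 12 and in 7 of 8. That call was lost with median-of-ratios factors (0.17, adjusted p = 0.058), quantile normalization (0.12, adjusted p = 0.17), the replicate block and without ZT13 PBS replicate 1 (0.17, adjusted p = 0.11). Of the genes of the iron regulatory proteins and their degradation, 0 of 3 passed at ZT1 by limma, with 0 at an unadjusted p under 0.05, and Aco1 alone rose at ZT13.

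In PBS-treated mice the iron genes were at much the same level at both times, with ratios of mean CPM between ZT13 and ZT1 of 0.933 for Slc40a1 to 1.20 for Tfrc. In PBS mice 0 of 8 differed between ZT13 and ZT1 by limma, beside 0.520% of all tested genes, and 2 had an unadjusted p under 0.05, Tfrc and Fth1, beside 13.5% of all tested genes. Tfrc did not overlap between the times, with 51.5 to 60.0 CPM at ZT1 and 62.7 to 71.3 CPM at ZT13, and its log2 fold change was 0.26 (SE 0.07, adjusted p = 0.13). An exact permutation test gave p = 0.10 (two-sided), the smallest that 3 mice against 3 allow, a value that the lack of overlap alone fixes. Fth1 differed by 0.09 (SE 0.04, adjusted p = 0.36) with overlap, and the median of the 8 was 0.05, against 0.00 for all genes. Of all tested genes 98 differed, 58.2% of them higher, and 47.2% of 199 after quantile normalization.

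After LPS, all 8 genes had higher means at ZT13 than at ZT1, but 0 of 8 passed the test by limma, beside 0.0212% of all tested genes. At an unadjusted p under 0.05, 5 of 8 differed, beside 10.6% of all tested genes, and the median log2 fold change was 0.25, against 0.01 for all genes. Fth1 was the gene whose LPS groups did not overlap, with 1223 to 1527 CPM at ZT1 and 1611 to 1852 CPM at ZT13. Its log2 fold change was 0.30 (SE 0.06, adjusted p = 0.088). An exact permutation test gave p = 0.0079 (two-sided), the smallest that 5 mice against 5 allow. The lack of overlap alone fixes that p, so it is no further support. Slc11a1 differed by 0.97 (SE 0.20, adjusted p = 0.099), with 4 of 5 ZT13 mice above all ZT1 mice, and Trf by 0.61 (SE 0.17, adjusted p = 0.20), with 4 of 5. Slc39a14 differed by 0.26 (SE 0.07, adjusted p = 0.20) and Ftl1 by 0.24 (SE 0.07, adjusted p = 0.19), while Tfrc was level at 0.02 (SE 0.14, adjusted p = 0.98).

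The count in LPS-treated mice depended on ZT1 LPS replicate 1, which was the highest of its group for Fth1, Ftl1, Slc11a1, Slc39a14, Trf, Slc11a2, Tfrc and the neutrophil sum. Without it 5 of 8 passed, Slc11a1 (1.14, adjusted p = 0.012), Fth1 (0.33, adjusted p = 0.016), Slc39a14 (0.32, adjusted p = 0.026), Trf (0.74, adjusted p = 0.027) and Ftl1 (0.29, adjusted p = 0.031), and the number of DEGs over all genes went from 4 to 345. With all mice, Fth1 (adjusted p = 0.026) and Slc11a1 (adjusted p = 0.033) passed in a single fit of all samples, and these 2 with Ftl1 (adjusted p = 0.040) and Trf (adjusted p = 0.046) passed with sample quality weights. Over the alternatives that kept all mice the adjusted p was 0.021 to 0.38 for Fth1 and 0.021 to 0.39 for Slc11a1. Of the 4 DEGs over all genes 50% were higher, and 33.3% of 3 with either other scaling. The part of neutrophils in the difference of Slc11a1 was not tested.

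The difference between the LPS effect at ZT13 and at ZT1 was tested as a TOD × treatment interaction over all 16 mice. It passed for 0 of 8 iron genes by limma, beside 0.159% of all tested genes, and for 3 at an unadjusted p under 0.05, beside 9.25%. These were Slc11a1 (1.02, SE 0.32, unadjusted p = 0.0049, adjusted p = 0.28), Fth1 (0.21, SE 0.09, unadjusted p = 0.026, adjusted p = 0.45) and Slc39a14 (0.24, SE 0.11, unadjusted p = 0.044, adjusted p = 0.52). The value for Trf, which passed the LPS test at ZT13 and not at ZT1, was 0.49 (SE 0.25, adjusted p = 0.56), so its response is not shown to differ between the times. For Tfrc the value was -0.24 (SE 0.20, adjusted p = 0.77). The median of the 8 was 0.22, against 0.01 for all genes, and of 30 genes past the threshold 76.7% were higher, or 65.0% of 20 after quantile normalization. The interaction and the 4 pairwise comparisons share samples.

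Of the further iron genes 0 of 56 passed by limma in PBS mice between times, in LPS mice between times, or in the interaction, with 4, 12 and 6 at an unadjusted p under 0.05, where 13.5%, 10.6% and 9.25% of all tested genes were. The count of 4 is under that background and the count of 6 is near it. Among the named further genes, the largest difference between times in LPS mice was that of Hp, at 1.62 (SE 0.41, adjusted p = 0.15), followed by Lcn2 at 0.92 (SE 0.22, adjusted p = 0.14). Endothelial cells of the brain are known to be rich in transferrin receptor. Their 10 markers summed to 242 to 293 CPM in PBS mice and to 371 to 474 CPM in LPS mice, led by Slc2a1 at 63.5 to 148 CPM. Of these 7 rose and 1 fell at ZT1, beside 11.1% and 5.15% of all tested genes, and 8 rose and 0 fell at ZT13, beside 19.2% and 9.40%. Between times in PBS mice 3 differed, beside 0.520%, and 4 did in the interaction, beside 0.159%. None was at or under 3 reads. The same shares apply to the marker lists that follow. The astrocyte markers, 8 genes led by Slc1a2, summed to 5174 to 5618 CPM in PBS mice and 5649 to 6497 CPM in LPS mice, with 4 higher at ZT1 and 4 higher and 1 lower at ZT13. Red blood cell markers, led by Hba-a1, summed to 2.98 to 32.7 CPM with no order by group, and 0 of 4 tested passed by limma in any comparison, nor at an unadjusted p under 0.05. The leptomeningeal and fibroblast markers, led by Igf2, summed to 148 to 238 CPM in PBS mice and 163 to 231 CPM in LPS mice, with 2 of 8 higher and 1 lower at ZT1 and 4 higher and 2 lower at ZT13. The part of these cells in the levels of the iron genes was not tested.

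Iron also acts on these genes after transcription, through iron-responsive elements, short hairpins in the untranslated regions to which the iron regulatory proteins bind. In a 5′ untranslated region they are known to hold back translation when iron is low, and in the 3′ untranslated region of Tfrc to stabilise the transcript. The mature transcripts of GENCODE M21 on GRCm38 were searched on the mRNA strand for C, 5 bases, CAGTGN and 5 bases that pair with the first 5, G with T allowed. A match in an untranslated region was found in 4 of the 9 genes, against 160 of 21901 coding genes (0.731%), of which 31 had it in the 5′ (0.142%) and 129 in the 3′ untranslated region (0.589%). Among the 65 further iron genes 1 had a match, Alas2 in its 5′ untranslated region. The matches are shown because iron is known to act on these transcripts through such elements, and capitals mark the CAGTGN loop. Both ferritin chains and ferroportin carried 1 match each in the 5′ untranslated region. The sites are at chr19:9982733-9982759 on the plus strand for Fth1, chr7:45459780-45459806 on the minus strand for Ftl1 and chr1:45925466-45925492 on the minus strand for Slc40a1.
Fth1: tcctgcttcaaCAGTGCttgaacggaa
Ftl1: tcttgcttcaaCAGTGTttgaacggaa
Slc40a1: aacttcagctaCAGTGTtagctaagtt

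Tfrc carried 4 matches in its 3′ untranslated region, all in the last of 19 exons and on the plus strand of chromosome 16. They lie at chr16:32631220-32631246, chr16:32631599-32631625, chr16:32631664-32631690 and chr16:32631711-32631737, in the order shown.
Tfrc 1: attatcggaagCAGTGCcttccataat
Tfrc 2: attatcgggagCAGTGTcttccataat
Tfrc 3: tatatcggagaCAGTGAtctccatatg
Tfrc 4: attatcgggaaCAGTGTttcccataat
The genes with a 5′ match differed in their transcript response to LPS, with Fth1 and Ftl1 higher at both times and Slc40a1 past the test at neither. For the other 5 genes this pattern was not found in the transcripts searched, which says nothing of other elements. The pattern allows no unpaired base within the 5 that pair, so an element with one there would be missed. Protein levels were not measured here, and a match is a description of sequence only.

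Over the 16 samples the Pearson correlation of log2 values was 0.98 for Fth1 with Ftl1 (0.78 after removal of the group means), 0.98 for Fth1 with Slc11a1 (0.71 within groups) and 0.99 for Slc39a14 with Slc11a1 (0.88 within groups). These are descriptions over mice that share treatment, with no p. Slc40a1 had -0.08 with Fth1 over all samples and 0.72 within groups, and 0.40 with Trf over all samples and 0.84 within groups. Tfrc stood further from the ferritin genes, at 0.61 with Fth1 and 0.31 within groups.

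The tested genes most like each iron gene over the 16 samples were the following, with each correlation followed by the one within groups. Fth1 was closest to Ctsb (0.99, 0.93), Cyba (0.99, 0.90) and Vim (0.99, 0.87). Ftl1 was closest to S100a6 (0.99, 0.91), Acp5 (0.99, 0.86) and Fth1. Slc11a1 was closest to Esyt1 (0.99, 0.94), Hp (0.99, 0.93) and Sipa1 (0.99, 0.91), and Slc39a14 to Mmp9 (0.99, 0.93), Hp (0.99, 0.93) and Slc11a1. For Slc11a2 they were Wdfy4 (0.96, 0.84), Slc2a9 (0.95, 0.84) and Batf (0.95, 0.83), and for Trf Entpd1 (0.95, 0.88), Igfbp5 (0.95, 0.90) and Ccr1 (0.93, 0.89). Tfrc was closest to Bclaf1 (0.95, 0.94), Sh3bgrl2 (0.94, 0.92) and Ppp2r3a (0.93, 0.89). The weakest likeness was that of Slc40a1, to Plekhg3 (0.81, 0.80), Pygb (0.80, 0.84) and Tpt1-ps3 (0.80, 0.82).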

How the data were processed

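The authors deposited a table of CPM per gene for 16 cortex samples. The submitters' processing notes name bcl2fastq, DRAGEN 4.0.3-8 and GRCm38. The table had 55774 lines, of which 287 repeated a gene and were removed. Only 80.7% to 82.4% of low values per sample were whole multiples of 1 read within 0.01 of a read, so no count test was run. Genes were kept at 1 CPM or more in 3 or more samples and tested as log2(CPM + 0.5) with limma 3.58.1 (R 4.3.3, intensity trend, Benjamini-Hochberg), each comparison on its own groups and the interaction on all 16 samples. Single genes also had two-sided exact permutation tests. The iron genes and all lists were chosen with earlier results of these data known. Named genes were all 9 iron genes, further iron genes past an adjusted p of 0.05 in LPS against PBS at both times or in any other comparison, and the 3 genes most like each. Alternatives were pseudocounts of 0.1 and 1, no filter, a filter of 5 CPM, quantile normalization, median-of-ratios factors, quality weights, a single fit, no trend, a replicate block, groups by the treatment field and the omission of each mouse. Summing ferritin copies and removing the 7SK and 7SL genes were added after the data were seen. The replicate block keeps all mice in the fit. In LPS against PBS, though, LPS replicates 4 and 5 have no PBS mouse of their number, so its estimate rests on replicates 1 to 3.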

Additional observations from a re-analysis of the deposited data

Results flagged for a closer look

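In groups of 5 LPS mice, 7 of 72 groups of values held a mouse far from the others. Chance does so in about 1 in 20 groups of independent values. The near-identical ferritin light chain copies are not independent, and Ftl1-ps2 had a median of 0 CPM in both LPS groups. The count is therefore not comparable with that share. Ferritin light chain copies stood out in replicate 5 of both times. In ZT1 LPS replicate 5, Ftl1-ps1 was at 34.2 CPM, Ftl2-ps at 19.5 CPM and Ftl1-ps2 at 1.37 CPM. In ZT13 LPS replicate 5, Ftl2-ps was at 7.19 CPM and Ftl1-ps2 at 0.699 CPM. Ftl1 itself was 176 and 187 CPM in these mice, within or near the other LPS mice. In ZT13 LPS replicate 2, Fth-ps2 was the lowest of its group at 1.33 CPM. In ZT1 LPS replicate 1, the leptomeningeal and fibroblast markers summed to 231 CPM, the highest of that group.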

How the results depend on the processing

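With treatment taken from the treatment field, 0 iron genes and 0 further iron genes passed at ZT1 and 0 and 0 at ZT13. With no filter on low values 8 further iron genes passed at ZT1. Between times in LPS mice, a single fit called 2 iron genes and 2 further ones, and quality weights called 4 and 3. Leaving out each mouse gave 4 to 6 iron genes and 10 to 13 further ones at ZT1, and 6 to 7 and 23 to 31 at ZT13. It gave 0 to 5 and 0 to 4 between times in LPS mice, 0 to 0 and 0 to 0 in PBS mice, and 0 to 0 and 0 to 1 in the interaction.

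With groups by title, signs turned only for log2 values near 0 that had not passed the test. Groups by the treatment field, which mix mice titled PBS and LPS, are left out of these signs and ranges. For Slc40a1, LPS against PBS at ZT13 was 0.0151 without ZT13 LPS replicate 5, in a range of -0.1236 to 0.0151 over left-out mice. With no mouse left out it ranged from -0.2838 with quantile normalization (adjusted p = 0.10) to 0.0714 with the block. LPS replicates 4 and 5 add nothing to that blocked value. For the same gene ZT13 against ZT1 in LPS mice was -0.0576 without ZT1 LPS replicate 2, in a range of -0.0576 to 0.3027. The log2 fold change of Tfrc, ZT13 against ZT1 in LPS-treated mice, was -0.0063, -0.0839 and -0.0465 without ZT1 LPS replicates 3 and 5 and ZT13 LPS replicate 1, in a range of -0.0839 to 0.1342. In PBS mice between times, Slc11a2 was -0.0208 without ZT13 PBS replicate 2 (-0.0208 to 0.0593), Slc39a14 was -0.0331 without ZT13 PBS replicate 3 (-0.0331 to 0.0705), and Slc11a1 was 0.1286 and 0.0602 without ZT1 PBS replicate 2 and ZT13 PBS replicate 1 (-0.1478 to 0.1286).

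The replicate block gave 6 and 7 iron genes for LPS at ZT1 and ZT13, and 12 and 25 further ones. It turned Slc40a1 at ZT13 to 0.0714 and called Tfrc at ZT1 (0.56, adjusted p = 0.014) and ZT13 (0.28, adjusted p = 0.0088) by limma. In these tests no PBS mouse has number 4 or 5, so the blocked values rest on replicates 1 to 3 of each group. The Tfrc calls gained with the block thus also leave out the low LPS replicate 5. Flvcr2 at ZT1 (adjusted p = 0.089) and Ppox at ZT1 (adjusted p = 0.061) and ZT13 (adjusted p = 0.056) were not called with the block. After removal of group means, 20 same-numbered pairs of samples correlated at -0.20 to 0.33, with a median of -0.01. Pairs with different numbers correlated at -0.21 to 0.19, with a median of -0.00, and 4 of 16 samples were closest to their own number. With so few pairs, these values cannot tell whether the numbers pair the mice.

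Over all genes, with all mice kept, these counts moved by over 1.5 times. LPS at ZT1 gave 1605 with no filter. PBS mice between times gave 65 with no filter, 158 at 5 CPM, 199 with quantile normalization, 43 in a single fit, 3 with no trend and 57 with the block. LPS mice between times gave 1 with no filter, 122 in a single fit, 225 with quality weights and 0 with no trend. The interaction gave 12 with no filter, 124 with quality weights and 11 with no trend. With the treatment field all 3 tests that use it gave 0. Leaving out each mouse gave 1767 to 3758 for LPS at ZT1, where the main count was 3061 and each of the 3 PBS mice moved it by over 1.5 times. It gave 4329 to 5547 for LPS at ZT13 (5401), 12 to 87 for PBS mice between times (98), 0 to 345 for LPS mice between times (4) and 7 to 104 for the interaction (30). The causes were not tested.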
